A study of Mus musculus with 12 samples.

Results

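The genes described here are 35 genes of sterol and fatty acid synthesis that the SREBP transcription factors control or that control SREBP. They were chosen by gene symbol from a list and not by a cutoff on measured values, but with earlier results of these data known. Counts of them set beside all tested genes below are therefore descriptive. All 35 were found among the 24421 gene rows of the deposited tables. All 35 also passed the filter on low counts, which 12164 genes passed. The set held 5 regulators, 21 sterol genes and 9 fatty acid genes. The libraries were polyA RNA sequencing of bone marrow-derived macrophages (primary macrophages grown from marrow progenitors) of male C57BL/6J mice aged 8 weeks. There were 4 groups of 3 libraries: lipopolysaccharide with siEhd1, lipopolysaccharide with siControl, siEhd1 alone and siControl alone. Lipopolysaccharide (LPS) is a bacterial cell wall component that activates Toll-like receptor signalling. The labels call the LPS groups M1 and the others M0, which are called LPS-treated and resting here. Ehd1 encodes a protein of endocytic recycling, and the study's title places it in macrophage inflammation and atherosclerosis. All cells had received an siRNA, so each siEhd1 comparison is between siRNAs. LPS-treated and resting cells were compared under the same siRNA. The sources used here state neither the siRNA sequences nor the LPS dose and time, and they do not say that replicates were separate animals or cultures. P-values therefore rest on library-to-library spread alone, and this may be technical.

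SREBP proteins are made as membrane-bound precursors in the endoplasmic reticulum, where SCAP holds them and senses cholesterol. When sterols are plentiful, the INSIG proteins retain the SCAP and SREBP complex. When sterols are scarce, SCAP escorts SREBP to the Golgi, where proteases release its transcription factor domain. SREBP-2, from Srebf2, mainly drives cholesterol synthesis, and SREBP-1c, from Srebf1, mainly drives fatty acid synthesis and desaturation. In macrophages these pathways supply membranes, set how much cholesterol is free to leave the cell, and are remodelled by inflammatory signals. The processing step acts on protein, so RNA levels of the regulators do not measure SREBP activity.

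SREBP factors bind sterol regulatory elements, often beside CCAAT boxes bound by NF-Y. Promoter windows from 250 before to 50 after each start (RefSeq, GRCm38.p6), were matched by symbol for 28 of the 35 genes, in 36 windows. TCACNCCAC, a form of the sterol regulatory element, was searched on both strands and lay in 1 of the 36 windows, that of Hmgcs1, against 1.24% of all 32851 windows. Its shorter core CACNCCAC, which overlaps it and was searched after the longer form, lay in 3 windows (Insig1, Acat2 and Hmgcs1), or 8.33%, against 6.24% of all windows. CCAAT on either strand lay in 24 of the 36 windows, or 66.7%, against 37.4% of all windows and 37.8% of windows of tested genes. By gene, 23 of 28 (82.1%) had a CCAAT box in some window, against 43.1% of tested genes. A match is a run of letters in a window, not shown to be bound. The sites below are the sterol element of Hmgcs1, the shorter core in Insig1, and the upstream CCAAT box nearest the start in each other gene called in resting cells that had one. Each is written 5′ to 3′ on the gene's strand with the motif in capitals (ATTGG is CCAAT on the other strand).
Hmgcs1 (chr13:119690204-119690233, plus strand): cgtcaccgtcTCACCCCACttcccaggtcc
Insig1 (chr5:28071392-28071421, plus strand): cgtgtagtgtcGTGGCGTGtaccttccatg
Idi1 (chr13:8885580-8885609, plus strand): gtccaaggtgccATTGGctggcgaccgaca
Lbr (chr1:181842412-181842441, minus strand): aaggtcgagggaCCAATggggagctcaggg
Msmo1 (chr8:64733616-64733645, minus strand): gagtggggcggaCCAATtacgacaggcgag
Hsd17b7 (chr1:169969200-169969229, minus strand): ggccgagccttgATTGGtcgaggtgcgcgt
Dhcr7 (chr7:143830153-143830182, plus strand): aatccacttccgATTGGtcgtctgtgacct
Fasn (chr11:120824589-120824618, minus strand): cctcggtgtccaATTGGtttcgatgtggag
Elovl5 (chr9:77917336-77917365, plus strand): ctccgggctcggATTGGctggccgcgccat
The listed CCAAT boxes thus stand in promoters of genes that were higher (Idi1, Lbr, Msmo1, Hsd17b7, Fasn) and of genes that were lower (Dhcr7, Elovl5) in resting siEhd1 cells.

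Library totals lay between 18572725 and 22545272 counts, and the 35 genes held 0.115% to 0.179% of each library. Levels below are in CPM, read counts scaled to library size with edgeR's TMM method, and "called" means an adjusted p under 0.05 in edgeR's quasi-likelihood test over all 12164 genes. Ehd1 was lower in every siEhd1 library: 33.6, 32.0 and 29.0 CPM in resting siEhd1 cells against 53.3, 52.1 and 54.4 CPM in resting siControl cells, and 282, 319 and 304 CPM against 678, 631 and 550 CPM after LPS. Macrophage markers were abundant, with summed levels of 19637 to 38654 CPM for 8 markers over the 12 libraries. Of 28 markers of neutrophils, dendritic cells, lymphocytes, stromal cells, adipocytes and erythroid or mast cells, 24 were under 1 CPM in every library. Among these, Cd3e, Nkg7, Plin1, Lep and Hba-a1 were at 0 in every library.

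In resting macrophages, siEhd1 was followed by higher RNA of desaturase genes and of part of the sterol chain. Of the 35 genes, 12 rose (34.3%), 3 fell (8.57%) and 20 were not called. Over all tested genes 14% rose and 14.2% fell (28.2% called either way). The median log2 fold change of the 35 was 0.18, against -0.02 over all tested genes. Among the 9 fatty acid genes 6 rose and 1 fell, among the 21 sterol genes 6 rose and 1 fell, and among the 5 regulators 0 rose and 1 fell. In 20 of the 35 genes (57.1%) the siEhd1 and siControl libraries did not overlap, 16 higher and 4 lower, against 44.1% of tested genes. In bulk RNA, fewer cells of a type and less RNA per cell cannot be told apart.

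**Figure D1:**
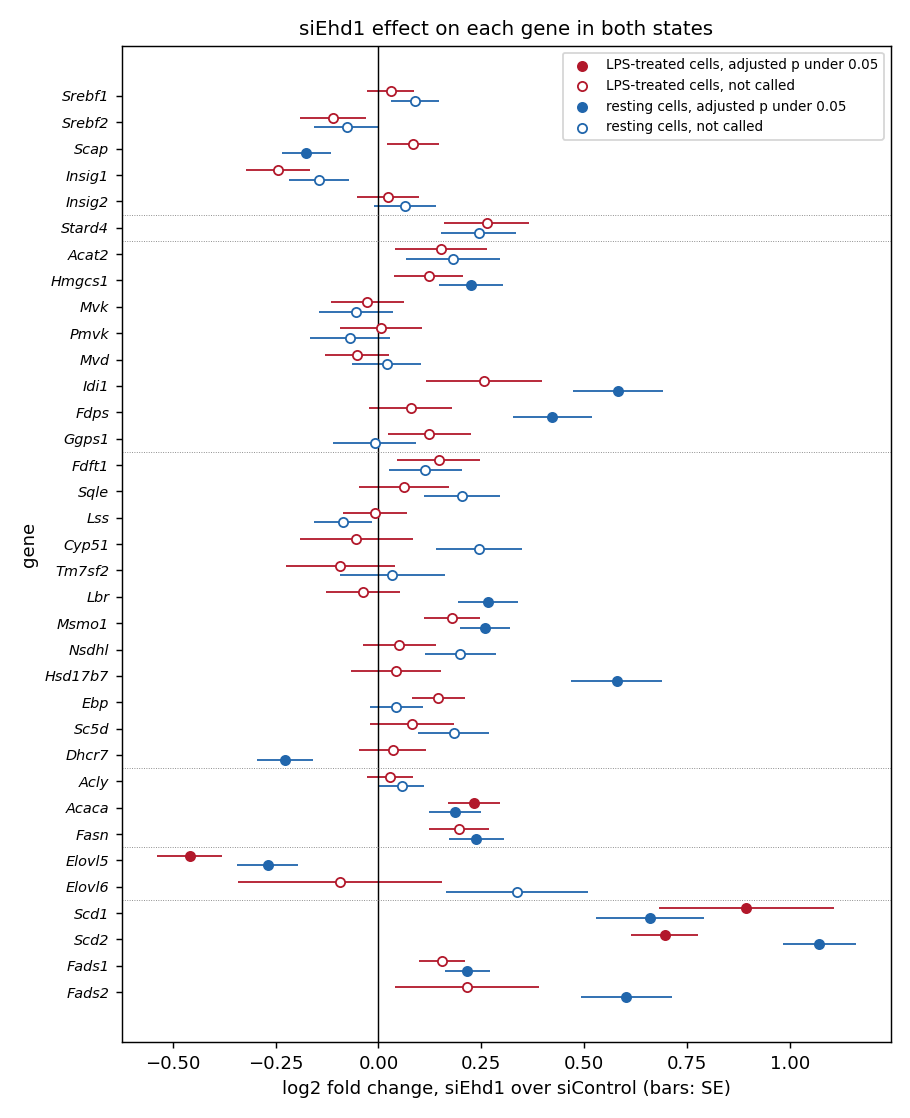
Log2 fold change of siEhd1 over siControl for each of the 35 genes (x axis, bars are SE from the edgeR fit over 12 libraries), in LPS-treated cells (red) and resting cells (blue); filled points had an adjusted p under 0.05. The Scd1 and Scd2 points lie farthest to the right in both states, and Elovl5 is the gene with filled points left of 0 in both.

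The regulators moved little. Srebf2, the gene of the cholesterol-synthesis factor, had 164, 169 and 160.1 CPM in resting siEhd1 libraries and 162, 182 and 177 CPM in resting siControl libraries, with overlapping groups (log2 fold change -0.08, SE 0.08, edgeR adjusted p = 0.51). Srebf1 had 104, 105 and 101 CPM in siEhd1 cells and 99.2, 96.8 and 95.6 CPM in siControl cells. These groups did not overlap, but the change was not called (0.09, SE 0.06, edgeR adjusted p = 0.27). Scap, the sterol sensor and escort, fell to 85.9, 92.0 and 86.8 CPM with siEhd1, against 106, 94.4 and 98.1 CPM with siControl (-0.18, SE 0.06, edgeR adjusted p = 0.034). The Scap call was lost under 6 of 11 alternatives, with an adjusted p up to 0.19. Insig1, itself an SREBP target and the retention factor, had 44.5, 50.6 and 49.6 CPM with siEhd1 and 47.7, 58.0 and 54.3 CPM with siControl (-0.15, SE 0.07, edgeR adjusted p = 0.15). The 3 siEhd1 values of Insig1 lay within or below the siControl range while several other SREBP targets lay above theirs. Insig2, the paralog less dependent on SREBP, was within 25.3 to 29.6 CPM in all 6 resting libraries.

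In the mevalonate steps, which make isoprenoids from acetyl-CoA, 3 of 8 genes rose (37.5%) and 0 fell. The shares over all tested genes in resting cells were 14% higher and 14.2% lower. Idi1, which encodes isopentenyl-diphosphate isomerase, had 23.1, 24.3 and 22.7 CPM in siEhd1 cells and 13.0, 19.1 and 14.7 CPM in siControl cells. All siEhd1 libraries lay above all siControl libraries (log2 fold change 0.58, SE 0.11, edgeR adjusted p = 0.00057). Fdps, the farnesyl diphosphate synthase gene, rose to 27.3, 27.0 and 25.4 CPM with siEhd1, against 17.0, 21.6 and 20.9 CPM with siControl (0.42, SE 0.10, edgeR adjusted p = 0.0029). Hmgcs1, the HMG-CoA synthase gene whose sterol element is printed above, had 67.1, 72.3 and 64.0 CPM with siEhd1 and 51.8, 60.4 and 62.0 CPM with siControl (0.22, SE 0.08, edgeR adjusted p = 0.037). The Hmgcs1 call was lost without siControl replicate 1 or 2 or siEhd1 replicate 1 or 2 (adjusted p up to 0.20). The kinase genes Mvk and Pmvk, the decarboxylase gene Mvd, the thiolase gene Acat2 and the geranylgeranyl diphosphate synthase gene Ggps1 were not called, with log2 fold changes from -0.07 (Pmvk) to 0.18 (Acat2).

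From squalene to cholesterol, 3 of 12 genes rose (25%) and 1 fell (8.33%), against 14% and 14.2% of all tested genes. Hsd17b7, a keto-reductase of the C4 demethylation complex, had 8.24, 9.74 and 7.88 CPM in siEhd1 cells and 5.06, 6.14 and 6.10 CPM in siControl cells (0.58, SE 0.11, edgeR adjusted p = 0.00052). Msmo1, the methylsterol oxidase of the same complex, had 58.6, 57.4 and 56.8 CPM with siEhd1 and 43.5, 52.2 and 48.7 CPM with siControl (0.26, SE 0.06, edgeR adjusted p = 0.0029). Both genes were higher in every siEhd1 library than in any siControl library. Lbr, which encodes a sterol reductase that is also a receptor for lamin B, had 38.1, 42.0 and 39.9 CPM with siEhd1 and 35.3, 31.4 and 33.1 CPM with siControl (0.27, SE 0.07, edgeR adjusted p = 0.0096). The Lbr call was lost without siControl replicate 2 or siEhd1 replicate 2 (adjusted p up to 0.056). Dhcr7, which encodes a last-step reductase of cholesterol synthesis, went the other way. It fell to 22.6, 22.9 and 23.2 CPM with siEhd1, against 27.4, 26.4 and 26.6 CPM with siControl (-0.23, SE 0.07, edgeR adjusted p = 0.018), a call lost without siControl replicate 1 or siEhd1 replicate 1 (adjusted p up to 0.067).

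The remaining 8 genes of these steps were not called. Sqle, the squalene epoxidase gene, had 35.5, 36.5 and 31.5 CPM in siEhd1 cells and 24.7, 31.1 and 34.1 CPM in siControl cells (0.20, SE 0.09, edgeR adjusted p = 0.11). Cyp51, the lanosterol demethylase gene, had 33.5, 33.2 and 29.5 CPM with siEhd1 and 21.7, 28.9 and 30.5 CPM with siControl (0.25, SE 0.10, edgeR adjusted p = 0.092). In both, siControl replicate 1 was the lowest library and replicate 3 lay inside the siEhd1 range. The squalene synthase gene Fdft1, the cyclase gene Lss, Tm7sf2, Nsdhl, Ebp and Sc5d ranged from -0.09 (Lss) to 0.20 (Nsdhl). Stard4, which encodes a carrier of cholesterol between membranes, stood just outside the threshold. It had 22.6, 22.8 and 21.0 CPM with siEhd1 and 16.6, 19.3 and 20.1 CPM with siControl (0.24, SE 0.09, edgeR adjusted p = 0.051), and was called under 4 of 11 alternatives.

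The fatty acid genes held the largest rise of the 35 in resting cells. Scd2, a stearoyl-CoA desaturase gene, had 82.1, 85.3 and 72.1 CPM in siEhd1 cells and 31.2, 42.1 and 40.7 CPM in siControl cells, a 2.10-fold difference (log2 1.07, SE 0.09, edgeR adjusted p = 2.5e-07). Scd1, its paralog, had 15.1, 15.1 and 15.6 CPM with siEhd1 and 7.88, 10.3 and 10.8 CPM with siControl, a 1.58-fold difference (0.66, SE 0.13, edgeR adjusted p = 0.00089). Fads2, the delta-6 desaturase gene of polyunsaturated fatty acids, had 19.0, 20.4 and 20.1 CPM with siEhd1 and 10.96, 12.8 and 15.4 CPM with siControl (0.60, SE 0.11, edgeR adjusted p = 0.00034). All 4 desaturase genes thus rose, since Fads1, the delta-5 desaturase gene, had 176, 175 and 172 CPM with siEhd1 and 146, 148 and 156 CPM with siControl (0.22, SE 0.05, edgeR adjusted p = 0.0056). No desaturase gene had overlapping groups. Counts of Scd1 and Scd2 are uncertain where reads could be split between the paralogs, since how multi-mapped reads were handled is not stated in the sources used here.

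The synthesis and elongation genes moved in both directions. Fasn, the fatty acid synthase gene, had 86.1, 85.5 and 75.1 CPM in siEhd1 cells and 69.1, 69.2 and 71.0 CPM in siControl cells (0.24, SE 0.07, edgeR adjusted p = 0.012), a call lost without siEhd1 replicate 1 or 2 (adjusted p up to 0.066). Acaca, the acetyl-CoA carboxylase gene, had 41.7, 46.7 and 39.7 CPM with siEhd1 and 37.0, 36.0 and 39.6 CPM with siControl (0.19, SE 0.06, edgeR adjusted p = 0.034). The Acaca call was lost under 6 of 11 alternatives (adjusted p up to 0.21). Acly, the ATP citrate lyase gene that supplies cytosolic acetyl-CoA to both branches, was level, with 203, 217 and 199.99 CPM with siEhd1 and 198, 191 and 208 CPM with siControl. Elovl5, the elongase gene of polyunsaturated fatty acids, was the exception in this branch. It fell to 44.6, 43.4 and 43.6 CPM with siEhd1, against 47.5, 53.2 and 57.9 CPM with siControl (-0.27, SE 0.07, edgeR adjusted p = 0.010), a call lost without siControl replicate 3 (adjusted p = 0.068). Elovl6, the elongase gene of saturated fatty acids, was low at 2.82 to 4.87 CPM in resting cells and was not called (0.34, SE 0.17, edgeR adjusted p = 0.16).

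**Figure D2:**
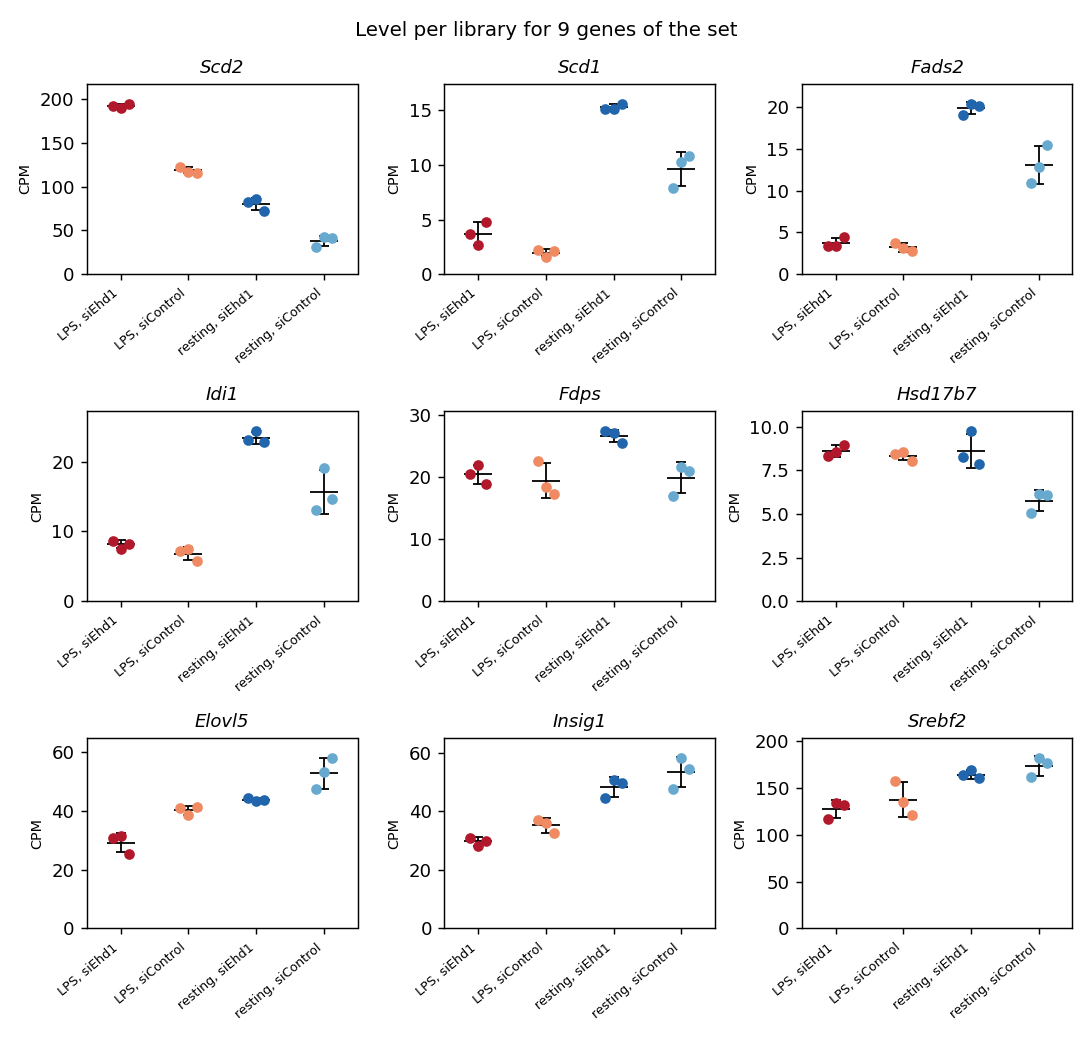
CPM in each library (y axis, from 0) for 9 of the 35 genes; points are single libraries, the horizontal mark is the mean and bars are SD over 3 libraries. The 3 resting siEhd1 libraries of Idi1, at 22.7 to 24.3 CPM, lie above all resting siControl libraries, and Scd2 is higher with siEhd1 in both states.

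The resting counts moved with single libraries of both siRNAs. Resting siControl replicate 1 was the lowest of the 3 siControl libraries for 25 of the 35 genes (71.4%), against 35.9% of all tested genes. Resting siEhd1 replicate 2 was the highest of its 3 for 21 of the 35 (60%), against 40.1% of all tested genes. Without siControl replicate 1, 10 of the 35 rose and 2 fell, and 11 of the 15 calls were shared, with Scap, Hmgcs1, Dhcr7 and Acaca lost and Insig1 gained as lower (log2 fold change -0.22, edgeR adjusted p = 0.037). Without siControl replicate 2, 9 rose and 3 fell. Without siControl replicate 3, 16 rose and 1 fell; without siEhd1 replicate 1, 9 rose and 1 fell; and without siEhd1 replicate 2, 8 rose and 3 fell. Idi1, Fdps, Msmo1, Hsd17b7, Scd1, Scd2, Fads1 and Fads2, 8 of the 15, were called under all 11 alternatives. Cell cycle genes moved with this comparison: 15 of 15 listed ones were higher in resting siEhd1 cells, with summed levels of 992 to 1173 CPM against 438 to 599.7 CPM in siControl cells. Interferon-stimulated genes moved too: 12 of 12 were lower, with sums of 914 to 1056 CPM in siEhd1 cells against 1707 to 1926 CPM in siControl cells. Of 8 macrophage markers 5 were lower, with sums of 19637 to 20987 CPM against 23635 to 24298 CPM. Beside these lists, 14% of all tested genes were higher and 14.2% lower in resting siEhd1 cells. The 28 markers of other cells summed to 2.60 to 6.11 CPM in siEhd1 cells and 3.91 to 7.24 CPM in siControl cells. The part of the cell cycle, interferon and macrophage genes in the SREBP result was not tested.

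In LPS-treated macrophages the genes called between siEhd1 and siControl were 4 fatty acid genes. Of the 35 genes 3 rose (8.57%), 1 fell (2.86%) and 31 were not called, against 4.44% higher and 4.1% lower of all tested genes (8.54% either way). The median log2 fold change was 0.06, against -0.00 over all tested genes. None of the 21 sterol genes or 5 regulators was called by edgeR, whereas Scd1, Scd2 and Acaca rose and Elovl5 fell. The libraries did not overlap in 8 of the 35 genes (22.9%), against 25.2% of tested genes. In the same cells 10 of 15 cell cycle genes were higher, with sums of 509 to 520.1 CPM against 348 to 391 CPM in siControl cells. The interferon list had 0 higher and 1 lower of 12, with sums of 6556 to 6813 CPM in siEhd1 cells and 6332 to 7133 CPM in siControl cells. Of the 8 macrophage markers 1 was lower, with sums of 35192 to 36901 CPM against 32175 to 38654 CPM. The 28 markers of other cells summed to 5.80 to 11.9 CPM in siEhd1 cells and 7.004 to 16.5 CPM in siControl cells. What these lists contribute to the SREBP values in LPS-treated cells was not tested.

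Scd2 had 192, 189 and 194 CPM in LPS-treated siEhd1 cells and 122, 117 and 116 CPM in LPS-treated siControl cells (1.62-fold, log2 0.70, SE 0.08, edgeR adjusted p = 6.2e-05). Scd1 had 3.68, 2.66 and 4.76 CPM with siEhd1 and 2.22, 1.59 and 2.09 CPM with siControl (0.89, SE 0.21, edgeR adjusted p = 0.011), a call lost without siControl replicate 2 or siEhd1 replicate 3 (adjusted p up to 0.066). For both paralogs every siEhd1 library was above every siControl library. Acaca had 49.2, 50.4 and 49.7 CPM with siEhd1 and 44.2, 41.4 and 41.4 CPM with siControl (0.23, SE 0.06, edgeR adjusted p = 0.025), a call lost under 6 of 11 alternatives (adjusted p up to 0.094). Elovl5 fell to 30.7, 31.6 and 25.5 CPM with siEhd1, against 40.9, 38.6 and 41.5 CPM with siControl (-0.46, SE 0.08, edgeR adjusted p = 0.00086). Scd2 and Elovl5 were the calls that held under all 11 alternatives. Without siControl replicate 1 the count of higher genes was 5, with Fasn and Fads1 added, and without siControl replicate 2 or siEhd1 replicate 3 it was 1.

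The sterol genes called in resting cells were not called between siRNAs in LPS-treated cells. Idi1 had 8.70, 7.55 and 8.15 CPM in LPS-treated siEhd1 cells and 7.25, 7.43 and 5.75 CPM in LPS-treated siControl cells (0.26, SE 0.14, edgeR adjusted p = 0.32), groups that did not overlap. Msmo1 had 27.3, 27.7 and 28.0 CPM with siEhd1 and 24.6, 24.9 and 23.8 CPM with siControl, again without overlap (0.18, SE 0.07, edgeR adjusted p = 0.11). Fdps (0.08), Hmgcs1 (0.12), Lbr (-0.04) and Hsd17b7 (0.04) had overlapping groups. Insig1 had 31.0, 28.2 and 29.9 CPM with siEhd1 and 37.1, 35.9 and 32.4 CPM with siControl (-0.24, SE 0.08, edgeR adjusted p = 0.059), and was called lower under 3 of 11 alternatives. Its siEhd1 libraries all lay below its siControl libraries.

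The test of the difference between the 2 siEhd1 effects called 1 of the 35 genes, as lower, and 0 as higher, against 2.93% lower and 3.12% higher of all tested genes (6.04% either way). That gene was Hsd17b7, whose log2 fold change was 0.04 in LPS-treated cells and 0.58 in resting cells, a difference of -0.54 (SE 0.15, edgeR adjusted p = 0.044). The call was lost under 11 of 16 alternatives (adjusted p up to 0.14). Scd2 had a difference of -0.38 (SE 0.12, edgeR adjusted p = 0.080), with calls under 3 of 16 alternatives. For the sterol genes as a group, therefore, 0 calls in LPS-treated cells and 7 in resting cells are counts side by side, and 1 of those 7 genes was called in the test of the difference.

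LPS itself lowered most of the set, and with either siRNA. With siEhd1, 21 of the 35 genes were lower and 7 higher in LPS-treated than in resting cells, and with siControl 20 were lower and 8 higher. Over all tested genes LPS lowered 34% and raised 32.9% with siEhd1 (67% either way), and lowered 34% and raised 34.8% with siControl (68.8% either way). The median log2 fold change of the 35 was -0.49 with siEhd1 and -0.52 with siControl, against -0.02 and -0.01 over all tested genes. Lower under both siRNAs were 20 genes, and 7 were higher under both. LPS-treated and resting libraries came in separate tables with no batch given, so LPS cannot be told apart from other handling particular to a table.

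LPS lowered genes of the mevalonate, sterol, desaturation and elongation steps. Fads2 had 3.39, 3.39 and 4.42 CPM in LPS-treated siEhd1 cells against 19.0, 20.4 and 20.1 CPM in resting siEhd1 cells (log2 fold change -2.42, SE 0.13), and 3.75, 3.12 and 2.71 CPM against 10.96, 12.8 and 15.4 CPM with siControl (-2.03, SE 0.14). Scd1 changed by -2.06 (SE 0.15) with siEhd1 and by -2.29 (SE 0.18) with siControl, and Elovl6 by -1.56 (SE 0.21) with siEhd1 and by -1.13 (SE 0.21) with siControl. Cyp51 stood at 9.47 ± 0.61 CPM against 32.0 ± 2.24 CPM in siEhd1 cells (-1.76, SE 0.12), and at 9.82 ± 1.24 CPM against 27.0 ± 4.64 CPM in siControl cells (-1.46, SE 0.12; SD, n = 3 each). Idi1 (-1.52 with siEhd1, -1.20 with siControl), Lbr (-1.50 with siEhd1, -1.20 with siControl) and Sqle (-1.19 with siEhd1, -1.05 with siControl) were called lower. So were Msmo1 (-1.06 with siEhd1, -0.98 with siControl) and Dhcr7 (-0.86 with siEhd1, -1.12 with siControl). Fads1 changed by -0.73 with siEhd1 and -0.67 with siControl, and Fasn by -0.79 with siEhd1 and -0.75 with siControl.

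Scd2 and part of the mevalonate chain went against that trend. Scd2 had 192, 189 and 194 CPM in LPS-treated siEhd1 cells against 82.1, 85.3 and 72.1 CPM in resting siEhd1 cells (2.40-fold, log2 1.26, SE 0.08, edgeR adjusted p = 7.9e-10). With siControl it had 122, 117 and 116 CPM in LPS-treated cells against 31.2, 42.1 and 40.7 CPM in resting cells (3.12-fold, log2 1.64, SE 0.09, edgeR adjusted p = 4.9e-11). Per kilobase of exon, Scd2 stood 46.4 times above Scd1 in LPS-treated siEhd1 cells and 53.9 times in LPS-treated siControl cells, but 4.68 times in resting siEhd1 cells and 3.52 times in resting siControl cells. Mvd rose after LPS by 0.78 (SE 0.08) with siEhd1 and 0.85 (SE 0.08) with siControl, beside Mvk (0.36 with siEhd1, 0.33 with siControl) and Acat2 (0.32 with siEhd1, 0.35 with siControl). Ebp (0.27 with siEhd1, 0.17 with siControl) and Acaca (0.22 with siEhd1, 0.17 with siControl) rose as well. The Acat2, Ebp and Acaca calls with siControl and the Acat2 call with siEhd1 were each lost without some libraries, and the siControl count of higher genes was 5 without LPS-treated replicate 1 or resting replicate 1. Hsd17b7 rose with siControl (0.53, SE 0.11, edgeR adjusted p = 0.00031) and was level with siEhd1 (-0.01, SE 0.11, edgeR adjusted p = 0.96), which is the same difference as that given above. Fdps fell with siEhd1 (-0.38, SE 0.10, edgeR adjusted p = 0.0022) and was level with siControl (-0.03), and that difference was not called (edgeR adjusted p = 0.17).

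**Figure D3:**
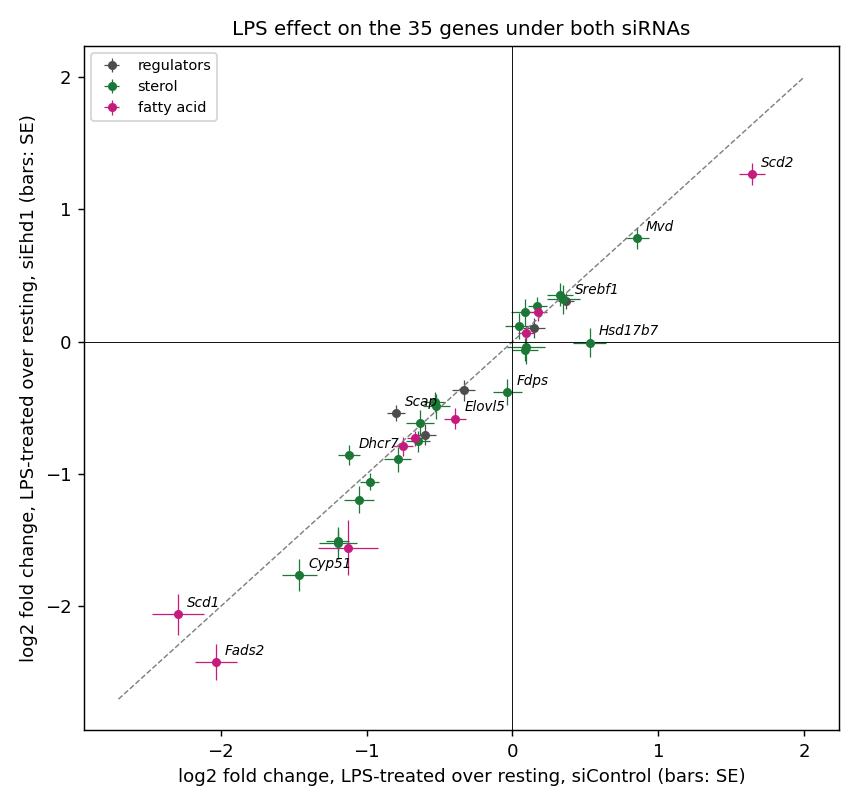
Log2 fold change of LPS-treated over resting cells for the 35 genes, with siEhd1 (y axis) against siControl (x axis); bars are SE, colours give the branch, and the dashed line marks equal effects. Scd2 and Mvd lie at the upper right, Scd1 and Fads2 at the lower left, and Hsd17b7 lies to the right of the line near 0 on the y axis.

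The regulators split after LPS. Srebf1 rose to 122, 131 and 131 CPM in LPS-treated siEhd1 cells, against 104, 105 and 101 CPM in resting siEhd1 cells (0.31, SE 0.06, edgeR adjusted p = 8.9e-05), and by 0.37 with siControl. Srebf2 fell to 117, 134 and 132 CPM, against 164, 169 and 160.1 CPM (-0.37, SE 0.08, edgeR adjusted p = 0.00068), and by 0.33 on the log2 scale with siControl. Scap (-0.54 with siEhd1, -0.80 with siControl) and Insig1 (-0.70 with siEhd1, -0.60 with siControl) also fell, and Insig2 was not called (0.11 with siEhd1, 0.15 with siControl). Of the 9 fatty acid genes, 2 rose with LPS as Srebf1 did (Scd2 and Acaca), 6 fell and 1 was not called, under either siRNA.

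**Figure D4:**
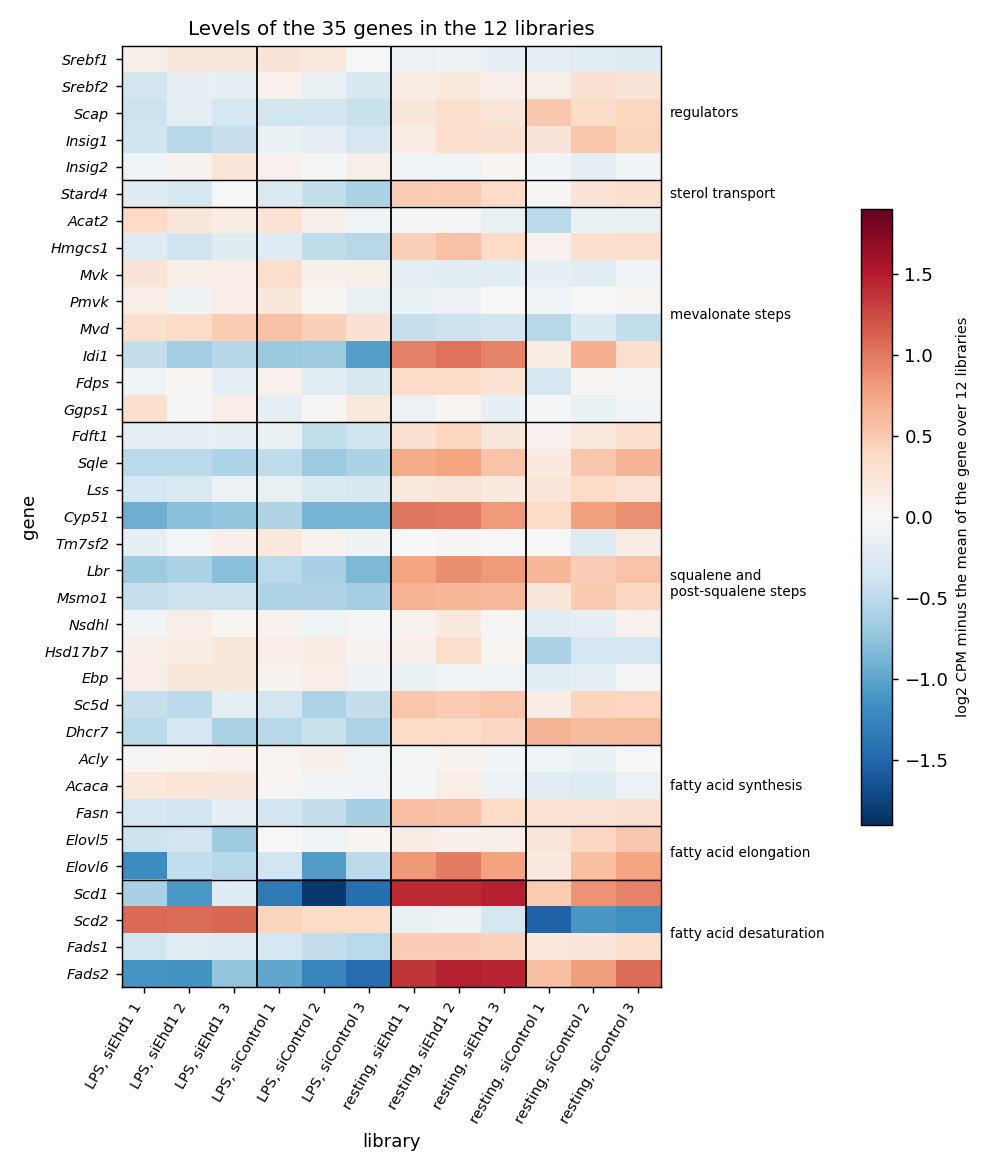
Log2 CPM of each of the 35 genes minus its mean over the 12 libraries (colour), by library (x axis) and by gene grouped by role (y axis). For Lbr, Msmo1, Sc5d, Scd1, Fads1 and Fads2 all 3 resting siEhd1 libraries are above every other library and the LPS-treated libraries are the lowest, and Scd2 shows the opposite order of states.

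Summed over the 21 sterol genes, the level was 503 to 534 CPM in resting siEhd1 cells and 422 to 481 CPM in resting siControl cells, and 357 to 367 CPM in LPS-treated siEhd1 cells and 319.8 to 366 CPM in LPS-treated siControl cells. The resting sums did not overlap between siRNAs. The LPS sums overlapped through siControl replicate 1 at 366 CPM, since replicates 2 and 3 had 338 and 319.8 CPM, below every siEhd1 sum. That library was the highest of the 3 LPS-treated siControl libraries for 26 of the 35 genes (74.3%), against 37% of all tested genes. For the 9 fatty acid genes the sums were 642 to 693 CPM in resting siEhd1 cells and 551 to 603 CPM in resting siControl cells, and 637 to 658 CPM in LPS-treated siEhd1 cells and 529 to 579 CPM in LPS-treated siControl cells. These did not overlap in either state. Abundant members weigh most in such sums. In LPS-treated cells Scd2 alone held 192, 189 and 194 CPM with siEhd1 against 122, 117 and 116 CPM with siControl. Of the 9 genes there, 3 were called higher with siEhd1, 1 lower and 5 not. The log2 fold change was positive in 7 and negative in 2, with a median of 0.20. The LPS sums by themselves therefore do not show a rise in every gene of the branch. Per kilobase of exon (GENCODE M21), Acly led the set with 39.1 CPM per kilobase in resting siEhd1 cells and 37.6 in resting siControl cells, followed by Fads1 with 36.2 in siEhd1 and 31.2 in siControl cells, whereas Elovl6 was lowest with 0.699 in siEhd1 and 0.553 in siControl cells.

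The 7-base sequence GCCTTGT in 3′ untranslated regions was searched because it was already known to go with lower levels in siEhd1 cells of this data set. Of 1649 tested genes that carry it, 465 were lower and 149 higher in resting siEhd1 cells, against 1161 lower and 1493 higher of 9586 genes without it. Of the 35 genes 6 carry it (17.1%, against 14.7% of 11235 searched genes), and these are Srebf2, Insig1, Ggps1, Fdft1, Cyp51 and Elovl5. Elovl5 was called lower in both states and the other 5 were called in neither. Scap and Dhcr7, also lower in resting cells, do not carry it. The median log2 fold change in resting cells was -0.04 over the 6 carriers and 0.20 over the 29 others, and for siEhd1 in LPS-treated cells it was -0.08 over the carriers and 0.08 over the others. The sequence was chosen from these same data, so the counts and medians given here are not independent of that choice. Whether the sequence has a part in the Elovl5 values was not tested.

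Other genes of the pathway, from 5 further lists with 79 tested genes, moved both ways in resting cells. In all, 21 rose (26.6%) and 16 fell (20.3%) in resting siEhd1 cells, against 14% higher and 14.2% lower of all tested genes. In LPS-treated cells 7 were higher (8.86%) and 1 lower (1.27%) with siEhd1, against 4.44% higher and 4.1% lower of all tested genes. The further sterol and isoprenoid list had 7 of 17 higher (41.2%) and 2 lower (11.8%) in resting cells. It also holds Hsd17b12, a gene of fatty acid elongation that is counted among the 7. Tmem97, an SREBP-responsive sterol-linked membrane protein gene, averaged 20.7 ± 0.61 CPM with siEhd1 and 15.8 ± 1.56 CPM with siControl (SD, n = 3 each; 0.39, SE 0.08), and rose in LPS-treated cells too (0.36, SE 0.08). Hsd17b12, whose product reduces ketoacyl-CoA in fatty acid elongation, rose in resting cells (0.55, SE 0.07), as did Cyb5b (0.24). Like Hsd17b7, Hsd17b12 did not differ detectably between siRNAs in LPS-treated cells (-0.01), and its difference between states was called (-0.56, SE 0.10, edgeR adjusted p = 0.0013). Further fatty acid genes had 8 of 19 higher (42.1%) and 2 lower (10.5%). The acyl-CoA synthetase gene Acsl3 averaged 26.4 ± 0.59 CPM with siEhd1 and 15.5 ± 2.15 CPM with siControl in resting cells (0.77, SE 0.10), and 8.86 ± 0.75 CPM with siEhd1 and 6.15 ± 1.16 CPM with siControl in LPS-treated cells (0.53, SE 0.13; SD, n = 3 each). Fads3 (0.46), Acsl4 (0.27) and the malic enzyme gene Me1 (0.33) rose in resting cells. In LPS-treated cells Fads3 (0.48) and Mid1ip1 (0.29), a carboxylase-binding protein gene, were higher with siEhd1 than with siControl. Acacb was under 1.2 CPM in every library and was not called.

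Of 17 genes that process SREBP or degrade sterol enzymes, 4 were higher (23.5%) and 2 lower (11.8%) in resting siEhd1 cells. Over all tested genes 14% were higher and 14.2% lower. Erlin2, which takes part in degradation at the endoplasmic reticulum, fell in both states, to 51.1 ± 1.76 CPM in resting siEhd1 cells against 63.3 ± 1.82 CPM in siControl cells (-0.31, SE 0.05) and to 50.8 ± 0.83 CPM against 63.1 ± 2.76 CPM in LPS-treated cells (-0.31, SE 0.05; SD, n = 3 each). The ubiquitin ligase gene March6 rose in both (0.22 in resting and 0.19 in LPS-treated cells). Pgrmc1 (0.22) and the NF-Y subunit gene Nfyb (0.34) rose in resting cells. The other NF-Y subunit genes, Nfya (0.0004) and Nfyc (0.16), were not called there. Nfya, Nfyb and Nfyc were not called between siRNAs in LPS-treated cells. Mbtps1, the site-1 protease gene that cleaves SREBP, was not called (-0.04 in resting and -0.05 in LPS-treated cells). Among uptake and trafficking genes 2 of 14 rose (14.3%) and 4 fell (28.6%) in resting cells, against the same 14% and 14.2%. The called genes included Mylip (-0.45), Stard3 (-0.28), Npc2 (-0.23) and Gramd1b (0.27). Gramd1b was also higher with siEhd1 than with siControl in LPS-treated cells (0.34).

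The oxysterol and LXR list held 6 lower (50%) and 0 higher genes of 12 in resting siEhd1 cells. Over all tested genes 14.2% were lower and 14% higher. LXR is the nuclear receptor pair that responds to oxysterols and drives cholesterol export. The other 6 genes of the list were not called. Of the 12, 7 had a negative and 5 a positive log2 fold change, with a median of -0.15. Those that fell included Abca1 (-0.54, SE 0.06), Apoe (-0.78, SE 0.10), Nr1h3 (-0.36, SE 0.06), which encodes LXR alpha, and Cyp27a1 (-0.50, SE 0.09), a sterol hydroxylase gene. In LPS-treated cells 1 of the 12, Nceh1 (0.20), was higher with siEhd1 than with siControl, and 0 were lower. Srebf1, Scd1 and Scd2 are LXR targets as well as SREBP genes. Scd1 and Scd2 were called higher in both siEhd1 comparisons, and Srebf1 was called in neither. Whether LXR has a part in any of these values was not tested. The difference between states was called for Apoe (1.04), Nr1h3 (0.45) and Abca1 (0.41). Ch25h, which encodes the enzyme that makes 25-hydroxycholesterol, an oxysterol that blocks SREBP processing, was low in resting cells, with 0.384, 0.769 and 0.894 CPM with siEhd1 and 0.528, 0.614 and 0.439 CPM with siControl. LPS raised it to 5.21, 5.37 and 4.36 CPM with siEhd1 (2.86, SE 0.22) and to 3.01, 3.87 and 3.61 CPM with siControl (2.72, SE 0.25). The siEhd1 difference in Ch25h in LPS-treated cells was not called (0.51, SE 0.17, edgeR adjusted p = 0.070).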

How the data were processed

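PolyA RNA of 12 macrophage libraries was sequenced. The deposited files are 2 tables of raw counts, with genes as symbols, and each state has its own table. From the submitters' processing notes come the build, mm10, and these tools: featureCounts 2.20.0, STAR 2.7.6a, cutadapt, Trim Galore 0.6.3, FastQC 0.10.1, R 4.4.2 and DESeq2 1.46.0. Those notes give no annotation, strand setting or handling of multi-mapped reads. Columns were matched to samples by library name.

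The tests used edgeR 4.0.16 (R 4.3.3) on the deposited counts, with filterByExpr (minimum count 10, minimum total 15), TMM, 1 mean per group over all 12 libraries, robust quasi-likelihood F tests (8 residual degrees of freedom) and Benjamini-Hochberg adjustment over 12164 genes at 0.05. The procedure was tested on simulated data with independent libraries and the same spread for every gene. That test does not cover single libraries that shift many genes together. The SE of a log2 fold change was taken as its size over the root of F. The alternatives were DESeq2 1.42.0, its size factors, no count filter, a replicate block, 1 state alone and leaving out each library. No replicate pair matched to within counting error.

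The members and lists were chosen with earlier results of these data known. Members called in an siEhd1 comparison, and all regulators, are given per library. Of each further list, the first gene, Abca1 and up to 4 called genes with the smallest p are named, and 2 genes that this rule names are not reported here.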

Additional observations from a re-analysis of the deposited data

Results flagged for a closer look

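Hsd17b7 was the 1 gene of the 35 whose siEhd1 effects in the 2 states differed in a direct test. The difference was -0.54 on the log2 scale (SE 0.15, edgeR adjusted p = 0.044). Its groups averaged 8.59 ± 0.33 CPM in LPS-treated siEhd1 cells and 8.33 ± 0.26 CPM in LPS-treated siControl cells, and 8.62 ± 0.985 CPM in resting siEhd1 cells and 5.77 ± 0.61 CPM in resting siControl cells (SD, n = 3 each), so the resting siControl libraries stood apart from the other 3 groups. The cause was not tested.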

How the results depend on the processing

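The direction of every call on the 35 genes held under the alternatives run, with 0 reversals. In resting cells the count of higher genes was 12 and ranged from 8 to 16 as single libraries were left out, and that of lower genes, 3, ranged from 1 to 3. In LPS-treated cells the higher count, 3, ranged from 1 to 5 and the lower count, 1, from 1 to 2; the lower count was 2 with no filter on low counts. For the difference of the siEhd1 effects the lower count, 1, ranged from 0 to 2 and the higher count was 0 throughout. Under DESeq2 the 1 difference called was Scd2, not Hsd17b7. For LPS with siControl the higher count, 8, ranged from 5 to 9 and the lower count was 20 throughout; with siEhd1 the higher count, 7, ranged from 6 to 8 and the lower count was 21 throughout.

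With the replicate number as a replicate block the counts were 11 higher and 2 lower in resting cells, 2 and 2 for siEhd1 in LPS-treated cells, and 0 and 0 for the difference. Same-numbered libraries did not steadily deviate together (r from -0.17 to -0.06 between resting siEhd1 and siControl libraries, and from -0.04 to 0.19 after LPS). Between LPS-treated and resting libraries r lay between -0.16 and 0.04 with siControl and between 0.007 and 0.25 with siEhd1. The numbers were therefore not treated as pairs. Differently numbered resting libraries of the 2 siRNAs reached r = 0.27, and a pairing under other numbers was not tested.

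Over all tested genes, the count lower in resting cells was 1728 in all libraries and 1148 without siControl replicate 1, and the counts for siEhd1 in LPS-treated cells were 540 higher and 499 lower, or 304 and 303 without siEhd1 replicate 1. For the difference they were 379 higher and 356 lower, with 232 lower under the replicate block, 209 to 236 lower without resting siControl replicate 1, resting siEhd1 replicate 1 or 2, or LPS-treated siEhd1 replicate 1 or 3, and 243 higher without resting siEhd1 replicate 1. DESeq2 size factors moved the median of all genes by at most 0.0081 (log2). After LPS, Elovl6, Scd1 and Fads2, all under 5 CPM in those libraries, had the largest SE of the siEhd1 effect among the 35 genes, at 0.25, 0.21 and 0.18.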
